A study of Mus musculus with 5 samples.

Results

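The genes described here encode the phosphoinositide 3-kinase (PI3K), AKT and mTOR pathway: 31 named genes, all of which are present among the 17739 genes of the deposited table. They were chosen by symbol for their role in the pathway, with earlier results of these data known. Expression was measured by RNA sequencing in 5 cerebellar tumours of a mouse model of Sonic hedgehog (SHH) medulloblastoma, a tumour that arises from granule neuron progenitors. All 5 tumours are Math1-Cre;Gli2A, bred from Math1-Cre and R26;Gli2A mice. The animals ate doxycycline-containing food from embryonic day 0, that is from conception on, and GLI2 is labelled active. In the cerebellum, recombination by Math1-Cre is largely limited to rhombic lip derivatives, granule neuron progenitors among them. The tumours can therefore hold cells without the switched allele. No control group is among the samples described here. The tumours are called 1, 5, 8, 14 and 15, as numbered in the labels. Whether each number is its own animal is not stated, so p-values measure only the spread between these samples, which may be technical.

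PI3K is recruited to activated growth factor receptors and makes a phosphoinositide lipid at the plasma membrane. The lipid brings AKT to PDK1, which activates it. AKT then inhibits the TSC complex, which frees RHEB to activate mTOR complex 1, the kinase that drives protein synthesis and growth. In granule neuron progenitors insulin-like growth factor signals through this pathway, and it acts beside SHH on proliferation. AMPK, switched on by LKB1 when energy is low, restrains mTOR complex 1. These proteins are controlled largely by phosphorylation, which RNA levels do not measure.

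The gene that varied most between the tumours was Sgk1, an AKT-related kinase whose transcription is known to respond to glucocorticoids and cell stress. It lies on GRCm38 chromosome 10, 21882184 to 21999903, on the plus strand. Because the letters before its start sites help to place that gene, 2 of its 6 RefSeq promoters (each 250 bases before to 50 after a start, GRCm38.p6) are shown, with that of Inpp4b, the gene of next largest variation (chromosome 8, 81342556 to 82127914, plus strand). Capitals mark the glucocorticoid receptor hexamer AGAACA or its reverse complement TGTTCT, and the TATA box TATAAA.
Sgk1, chr10:21993640-21993939, plus strand: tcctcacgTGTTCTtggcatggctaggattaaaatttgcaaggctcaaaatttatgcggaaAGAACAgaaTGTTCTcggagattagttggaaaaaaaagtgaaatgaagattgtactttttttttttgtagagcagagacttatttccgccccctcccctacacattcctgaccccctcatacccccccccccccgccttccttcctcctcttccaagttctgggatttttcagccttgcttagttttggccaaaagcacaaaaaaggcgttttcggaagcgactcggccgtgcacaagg
Sgk1, chr10:21994416-21994715, plus strand: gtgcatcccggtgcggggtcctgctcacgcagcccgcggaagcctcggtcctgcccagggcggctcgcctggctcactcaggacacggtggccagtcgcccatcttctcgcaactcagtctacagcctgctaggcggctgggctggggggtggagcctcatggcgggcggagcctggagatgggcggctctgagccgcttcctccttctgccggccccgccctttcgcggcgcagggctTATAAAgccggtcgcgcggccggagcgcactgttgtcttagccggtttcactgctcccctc
Inpp4b, chr8:81342312-81342611, plus strand: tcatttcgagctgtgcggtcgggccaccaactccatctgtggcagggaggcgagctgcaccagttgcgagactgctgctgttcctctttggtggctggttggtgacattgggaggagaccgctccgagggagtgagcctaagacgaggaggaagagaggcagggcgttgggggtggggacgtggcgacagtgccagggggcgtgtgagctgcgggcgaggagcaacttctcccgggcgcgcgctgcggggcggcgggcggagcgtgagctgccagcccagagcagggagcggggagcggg
The first Sgk1 promoter holds 3 such hexamers, of which a pair forms the inverted repeat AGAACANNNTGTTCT. That repeat, searched for after the sequence was seen, is present in 3 of 32851 RefSeq promoters (0.00913%), and in 1 of the 44 promoters of the 28 pathway genes with an entry. The second Sgk1 promoter holds a TATA box. Of the Sgk1 promoters not shown, chr10:21881934-21882233 holds a hexamer, chr10:21991973-21992272 holds a hexamer and a TATA box, and the rest hold neither. Single hexamers are common, in 19.0% of all promoters, as is TATAAA, in 13.6%. Of the 44 pathway promoters, 5 hold a hexamer (of Pik3cd, Rps6kb1 and Sgk1) and 4 hold TATAAA (of Gsk3b, Pik3r1 and Sgk1). In the Inpp4b promoter neither motif was found on either strand. The GLI consensus GACCACCCA was found in 0 of the 44 pathway promoters, against 0.253% of all promoters, the FOXO motif GTAAACA in 2 (Akt1 and Stk11), against 3.65%, and the cyclic AMP element TGACGTCA in 0, against 1.79%. A match to letters is a description and not a binding site.

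Values are log2 expression values, read as regularised-log values. Levels of different genes are compared only after subtracting the log2 of each gene's exon length in kb, and are then called per kb. Genes averaging at least 5 are called expressed (13691 in the table), and all 31 pathway genes pass. The median of the 31 genes per kb was 7.67 in tumour 1, 7.69 in tumour 5, 7.73 in tumour 8, 7.79 in tumour 14 and 7.70 in tumour 15, or 7.72 ± 0.05 (SD, n = 5). The same median over all expressed genes was 7.18 ± 0.01. The pathway genes covered a wide range per kb, with Akt1 at the top (11.07 ± 0.09) and Inpp4b at the bottom (3.82 ± 0.35). Akt1 stood clear of the next gene, Pik3r2, by 1.23, more than the spread of either. Pik3r2 and Gsk3a did not differ beyond their spread, nor did Pik3r3 and Ddit4, and the genes from Inppl1 through Phlpp1, Sgk1 and Pik3ca to Pik3r1 formed a run of neighbours within their spread. At the low end Prkaa2, Pik3cd and Pik3cb formed another such run, and so did Sgk3 and Inpp4b. These runs hold for the length of all exons only, and the order was not recomputed with the longest transcript. Sgk3 has 14311 exonic bases but a longest transcript of 3779, and Inpp4b has 13066 and 8067.

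**Figure D1:**
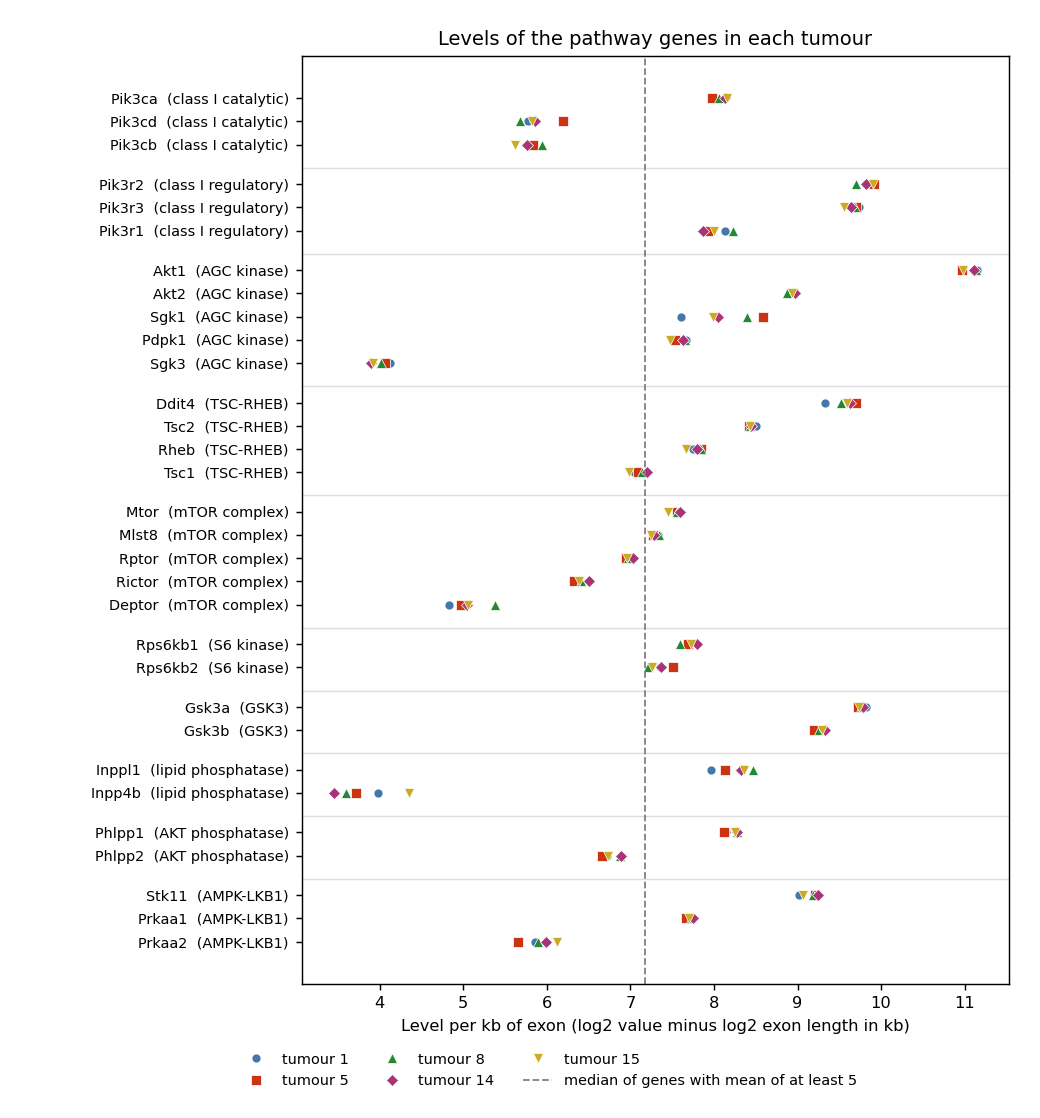
Level per kb of exon (log2) of each of the 31 pathway genes, grouped by role, with 1 point for each of the 5 tumours and a dashed line at the median of expressed genes (7.18). Akt1 lies highest in every tumour, and the points of most genes lie close together, with Sgk1 and Inpp4b the most spread.

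Related genes were then set against each other within each tumour, to ask which member of a family or complex dominated. There were 12 such pairs. In all 12 the 5 tumours agreed in sign. The exact sign-flip permutation test (two-sided) then gave p = 0.063 for every pair, and the same after Benjamini-Hochberg adjustment over the 12 pairs. This is the lowest p that 5 tumours allow, so no pair can pass 0.05. A constant sign is the usual case, since 92.7% of all pairs of expressed genes have one. The size of each difference is therefore the information here. Its SD measures the spread between tumours and not the effect of the length chosen, which moved some differences by more than their SD. With the longest transcript in place of all exons, Pik3r1 minus Pik3r3 was -1.14, against -1.63. Akt1 minus Akt2 was 2.10, against 2.14.

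Among the class I catalytic subunits, which carry out the lipid phosphorylation, Pik3ca was the most abundant. It was measured at 11.32, 11.16, 11.25, 11.32 and 11.34 in tumours 1, 5, 8, 14 and 15, a narrow range of 0.17. Per kb it exceeded Pik3cb, the ubiquitous beta subunit, by 2.31 ± 0.17 (SD, n = 5), or 4.95-fold, and Pik3cd, the delta subunit best known from white blood cells, by 2.23 ± 0.25, or 4.68-fold. Pik3cb was measured at 8.62, 8.68, 8.79, 8.61 and 8.46 in the tumours in that order. Pik3cd was measured at 8.42, 8.84, 8.33, 8.51 and 8.47. Its value in tumour 5 stood above the other 4, and without tumour 5 its range fell to 0.18, against 0.51 with it. Of the 11 microglia and macrophage markers, 9 also peaked in tumour 5, and 9 were lowest in tumour 15, whereas Pik3cd was lowest in tumour 8. The log2 of the summed level of these markers was 13.99 in tumour 5, against 13.17 to 13.44 in the other tumours, and none was at 0. The gamma catalytic subunit Pik3cg and the blood cell phosphatase Inpp5d, which are no members of the 31, were likewise highest in tumour 5 (7.04, against 6.55 to 6.76, and 9.07, against 8.27 to 8.57). Markers of other cell types peaked in tumour 5 as well, 9 of 9 for oligodendrocytes, 5 of 6 for choroid plexus, 5 of 7 for endothelium and 6 of 8 for mature granule neurons. The part of any of these cells in the Pik3cd values was not tested. In RNA pooled from papain-digested tumour cells, fewer cells of a type and less RNA per cell cannot be told apart.

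The regulatory subunits, which stabilise the catalytic subunit and link it to receptors, had another order. Pik3r2 (9.84 ± 0.09 per kb) and Pik3r3 (9.66 ± 0.07) were the highest, and Pik3r1, the prototype subunit of the family, was lower (8.03 ± 0.15). The difference of Pik3r1 minus Pik3r2 was -1.81 ± 0.21, and that of Pik3r1 minus Pik3r3 was -1.63 ± 0.14. Of the exonic bases of Pik3r3, 24.3% are shared with the same-strand gene Gm49337, so its count may have been split. Pik3r1 was measured at 11.47, 11.26, 11.56, 11.21 and 11.33 in tumours 1, 5, 8, 14 and 15, highest in tumour 8. Pik3r2 ran from 11.76 to 11.97 and was lowest in tumour 8, so the gap between these subunits was narrowest there (-1.47) and widest in tumour 5 (-1.99).

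Akt1, the founding AKT kinase gene (chromosome 12, 112653821 to 112674884, minus strand), was the most abundant pathway gene per kb. It was measured at 13.18, 13.01, 13.17, 13.15 and 13.01 in tumours 1, 5, 8, 14 and 15. Tumours 5 and 15 were the lower ones, by less than 0.2. Per kb it exceeded Akt2, the isoform best known for insulin signalling, by 2.14 ± 0.10 (SD, n = 5), or 4.42-fold. Akt2 varied by only 0.09 over the 5 tumours, and 3.94% of expressed genes varied less. Pdpk1, which encodes PDK1, ran from 10.92 in tumour 15 to 11.12 in tumour 1.

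Sgk1 and Sgk3 encode kinases of the same family that share substrates with AKT. Sgk1 was measured at 9.90 in tumour 1, 10.88 in tumour 5, 10.69 in tumour 8, 10.34 in tumour 14 and 10.28 in tumour 15. Tumour 1 was low and tumours 5 and 8 were high, a 1.98-fold range, which was wider than that of 96.0% of expressed genes. Sgk3 lay between 7.73 and 7.96, and Sgk1 exceeded it per kb by 4.12 ± 0.40 (SD, n = 5), from 3.49 in tumour 1 to 4.52 in tumour 5. With the length of the longest transcript in place of all exons, the difference was 2.87. Without tumour 1 the range of Sgk1 was 0.61 on the log2 scale, against 0.99 with it.

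The order of the tumours by Sgk1 (5, 8, 14, 15, 1) was found in 1.43% of expressed genes. It was also the order of the summed level of oligodendrocyte markers, whose log2 was 14.52, 15.89, 15.53, 15.05 and 14.77 in tumours 1, 5, 8, 14 and 15, with 9 of 9 markers highest in tumour 5, 8 of 9 lowest in tumour 1 and none at 0. Gene by gene, 5 of the 9 had the full order. The summed level of choroid plexus markers had this order too, but 1 gene carries it, Ttr, the most abundant of the 6 and the only one with that order itself. The sums were 13.32, 14.85, 13.51, 13.46 and 13.39, with 5 of 6 markers highest in tumour 5, 2 lowest in tumour 1 and 4 in tumour 15, and none at 0. The sum over genes of the immediate early and dissociation stress response had the same order, with values of 15.95, 16.62, 16.60, 16.49 and 16.47, and 10 of 10 were lowest in tumour 1. Only 1 of these 10, Dusp1, had the full order, and the highest value was in tumour 5 for 3, in tumour 8 for 3 and in tumour 15 for 4. Of 7 glucocorticoid-induced genes, 4 were highest in tumour 8, 3 in tumour 5, while 3 were lowest in tumour 1 and 4 in tumour 15, with summed levels of 13.19, 13.44, 13.51, 13.24 and 13.13. Gene by gene, 2 of these 7 had the full order of Sgk1. Tsc22d3, which did not have it, was measured at 9.65 in tumour 1 and at 10.02 to 10.47 in the others. The part of each of these lists in the Sgk1 values was not tested. In all, 24 lists of other genes were examined, and no other sum had the order of Sgk1. The share of 1.43% is for single genes and not for sums. By the list median, choroid plexus had the order 5, 8, 14, 1, 15, while the oligodendrocyte and immediate early lists kept that of Sgk1.

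Among the enzymes that remove phosphates downstream of PI3K, Inppl1 and Inpp4b act on the lipids and Phlpp1 and Phlpp2 on AKT itself. Inpp4b, a 4-phosphatase, was the least abundant pathway gene per kb. It was measured at 7.69, 7.42, 7.31, 7.16 and 8.06 in tumours 1, 5, 8, 14 and 15. Tumour 15 was high and tumour 14 low, a 1.87-fold range, and without tumour 15 the range was 0.53 on the log2 scale, against 0.90 with it. Of the 7 pericyte and fibroblast markers, 5 peaked in tumour 15, while 4 were lowest in tumour 14 and 3 in tumour 5. Their summed level was 14.51, 14.09, 14.65, 14.25 and 14.96 (log2) in the tumours in that order, with none at 0, and their part in the Inpp4b values was not tested.

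Inppl1, which encodes the 5-phosphatase SHIP2, was measured at 10.65, 10.81, 11.14, 11.00 and 11.03 in tumours 1, 5, 8, 14 and 15. Tumour 1 was lowest, and without it the range was 0.33, against 0.49 with it. On the opposite strand, exons of Phox2a and Gm10602 cover 20.3% of its exonic bases, and how the counting treated strand is not stated. Phlpp1 exceeded Phlpp2 per kb by 1.44 ± 0.05 (SD, n = 5), or 2.71-fold, among the steadiest differences. Both were lowest in tumour 5.

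**Figure D2:**
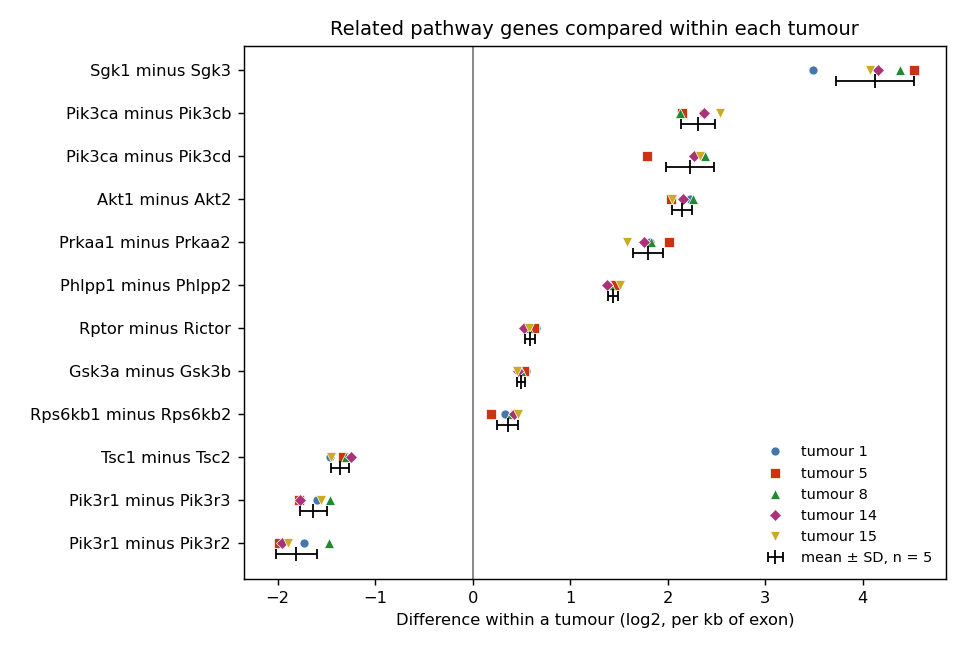
Difference between related pathway genes within each tumour (log2, per kb of exon), with 1 point a tumour and the mean ± SD over the 5 tumours drawn below the points. Sgk1 minus Sgk3 is the largest at 4.12 ± 0.40, and Pik3ca minus Pik3cd is smaller in tumour 5 (1.79) than in the other 4.

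In the TSC and RHEB branch, Tsc2, whose product holds the GTPase-activating domain that switches RHEB off, exceeded its partner Tsc1. The difference of Tsc1 minus Tsc2 was -1.36 ± 0.09 per kb (SD, n = 5), a 2.56-fold gap. Tsc2 was measured at 11.77, 11.69, 11.70, 11.71 and 11.69 in tumours 1, 5, 8, 14 and 15, a range of 0.08 that 3.37% of expressed genes fell below. Tsc1 ran from 10.54 in tumour 15 to 10.76 in tumour 14. Rheb, the GTPase that activates mTOR complex 1, ran from 10.61 in tumour 15 to 10.80 in tumours 5 and 8. Ddit4, a stress-induced inhibitor of mTOR complex 1 also called REDD1, was measured at 10.15, 10.51, 10.33, 10.44 and 10.40. Like Sgk1 it was lowest in tumour 1 and highest in tumour 5, and without tumour 1 its range was 0.18, against 0.36 with it.

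The core of the mTOR complexes was nearly level across tumours. Mtor, the kinase, was measured at 10.92, 10.90, 10.90, 10.93 and 10.78 in tumours 1, 5, 8, 14 and 15, with only tumour 15 apart. Rptor, the scaffold of complex 1, varied by 0.07, the least of the 31 genes, between 10.70 and 10.78. Rictor, the scaffold of complex 2, ran from 10.39 to 10.59, and Rptor exceeded it per kb by 0.59 ± 0.05 (SD, n = 5), or 1.51-fold. Mlst8, a subunit of both complexes, varied by 0.10, although antisense exons of Bricd5 cover 22.5% of its exonic bases. Deptor, an inhibitor of mTOR, was the exception. It was measured at 7.98, 8.13, 8.52, 8.19 and 8.20, high in tumour 8, and without tumour 8 its range was 0.22, against 0.54 with it.

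Of the kinases further down, Rps6kb1, which encodes the main S6 kinase, exceeded Rps6kb2 per kb by 0.36 ± 0.11 (SD, n = 5), from 0.18 in tumour 5 to 0.47 in tumour 15. With the longest transcript as the length, this difference was 0.83. Rps6kb2 shares 23.7% of its exonic bases with the antisense genes Coro1b and Ptprcap and was highest in tumour 5 (9.88, against 9.58 to 9.74). Gsk3a and Gsk3b encode GSK3 kinases that AKT inhibits and that phosphorylate N-MYC for degradation in granule progenitors. Both were among the 6 highest pathway genes per kb, and Gsk3a exceeded Gsk3b by 0.50 ± 0.04. Without the subtraction of exon length the sign was the opposite, at -1.26. Antisense exons of 9130221H12Rik cover 28.3% of the exonic bases of Gsk3a.

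In the energy-sensing branch, Stk11, which encodes LKB1, stood highest (9.14 ± 0.10 per kb, SD, n = 5). Prkaa1, an AMPK catalytic subunit, was measured at 9.89, 9.88, 9.95, 9.97 and 9.92 in tumours 1, 5, 8, 14 and 15, and varied by 0.09. Prkaa2, the other catalytic subunit, was measured at 8.85, 8.65, 8.89, 8.99 and 9.12. It was lowest in tumour 5 and highest in tumour 15, and without tumour 5 its range was 0.27, against 0.47 with it. Prkaa1 exceeded Prkaa2 per kb by 1.80 ± 0.15, or 3.48-fold, least in tumour 15 (1.58) and most in tumour 5 (2.01).

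Of the 31 genes, 2 varied over 1.5-fold between the highest and lowest tumour, Sgk1 and Inpp4b (6.45%), against 14.7% of all expressed genes. Deptor, at 1.46-fold, lay just under that threshold. None of the 31 varied over 2-fold, against 3.79% of expressed genes, with Sgk1 at 1.98-fold just under. The median SD between tumours was 0.085 for the 31 genes and 0.109 for expressed genes. Part of this gap goes with level, since genes of higher level varied less: among the 4188 genes with a mean of 10 to 12, 6.92% varied over 1.5-fold and the median SD was 0.085, against 1 of 18 pathway genes and 0.078. At matched level the share of pathway genes over 1.5-fold was thus near that of other genes. Without tumour 15 only Sgk1 varied over 1.5-fold, against 10.5% of expressed genes. Without tumour 5 the same 2 genes did, against 8.89%.

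**Figure D3:**
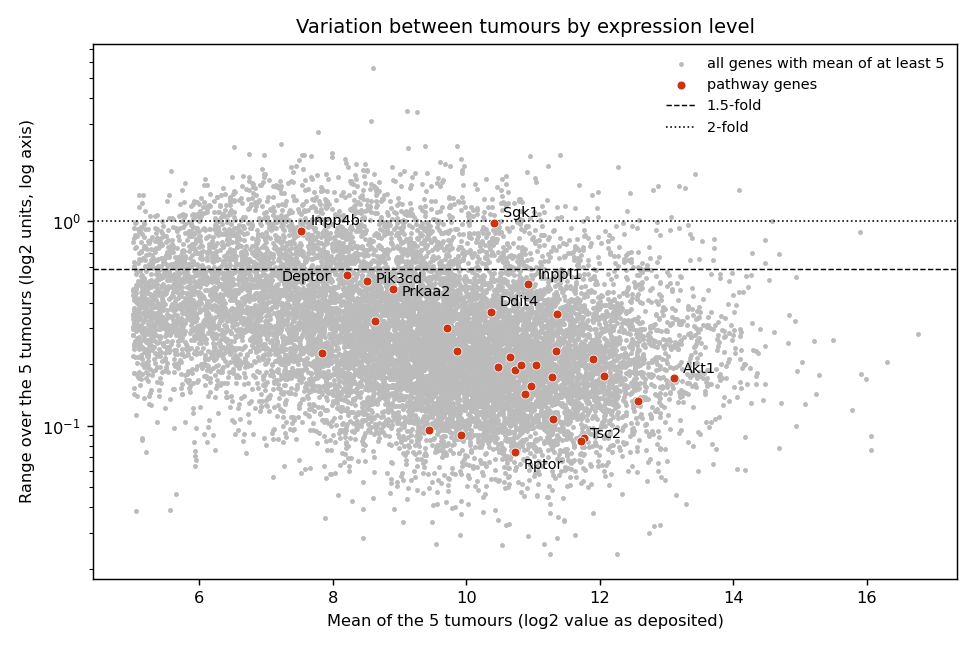
Range over the 5 tumours (log2 units, log axis) against mean level (log2 value as deposited) for 13691 expressed genes in grey and the 31 pathway genes in red, with lines at 1.5-fold and 2-fold. Sgk1 and Inpp4b lie above the 1.5-fold line, Rptor is the lowest of the red points, and ranges fall as level rises.

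Libraries 5 and 15 were the most unlike, over 1.5-fold apart at 1205 expressed genes, against 251 for tumours 8 and 14. No library shared an identical value with another at any expressed gene. Of 10 SHH targets, 8 were lowest in tumour 5, and of 8 mature granule neuron markers, 6 peaked there. The granule progenitor markers Zic1 (15.08 ± 0.05, SD, n = 5) and Atoh1 (8.62 ± 0.67) were present in all 5 tumours, as was Gli2 (11.27 to 11.56). Atoh1 ran from 8.00 in tumour 1 to 9.49 in tumour 15, a 2.81-fold range.

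By tumour, several counts of highest and lowest pathway genes were near the shares over expressed genes, and none was tested. Tumour 14 held the highest value for 10 of 31 (32.3%), against 15.8% of expressed genes. These were Akt2, Tsc1, Mtor, Rptor, Rictor, Rps6kb1, Gsk3b, Phlpp2, Prkaa1 and Stk11. The shift was small, with a median of 0.04 on the log2 scale above the middle of the other 4 tumours, against 0.0005 for expressed genes, and 23 of 31 genes lay above it (74.2%, against 50.2% of expressed genes). Of 8 cell cycle markers, 4 peaked in tumour 14 and 4 in tumour 8, with a summed level (log2) of 15.61 in tumour 14 and 15.27 to 15.52 in the rest, and their part in this was not tested. Tumour 5 held the lowest value for 10 of 31 genes (32.3%), against 24.6% of expressed genes, among them Pik3ca, Akt1, Gsk3a, Gsk3b and Prkaa2. In tumour 15 the lowest values included Mtor, Tsc1, Rheb, Mlst8 and Pdpk1, 7 of 31 in all (22.6%, against 22.9% of expressed genes). Tumours 1, 5 and 8 each held the highest value for 6 of 31 (19.4%, against 20.2%, 24.1% and 18.5% of expressed genes), and tumour 15 for 3 (9.68%, against 21.4%). The lowest value was in tumour 1 for 6 (19.4%, against 16.9%), in tumour 8 for 5 (16.1%, against 22.6%) and in tumour 14 for 3 (9.68%, against 13.0%).

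**Figure D4:**
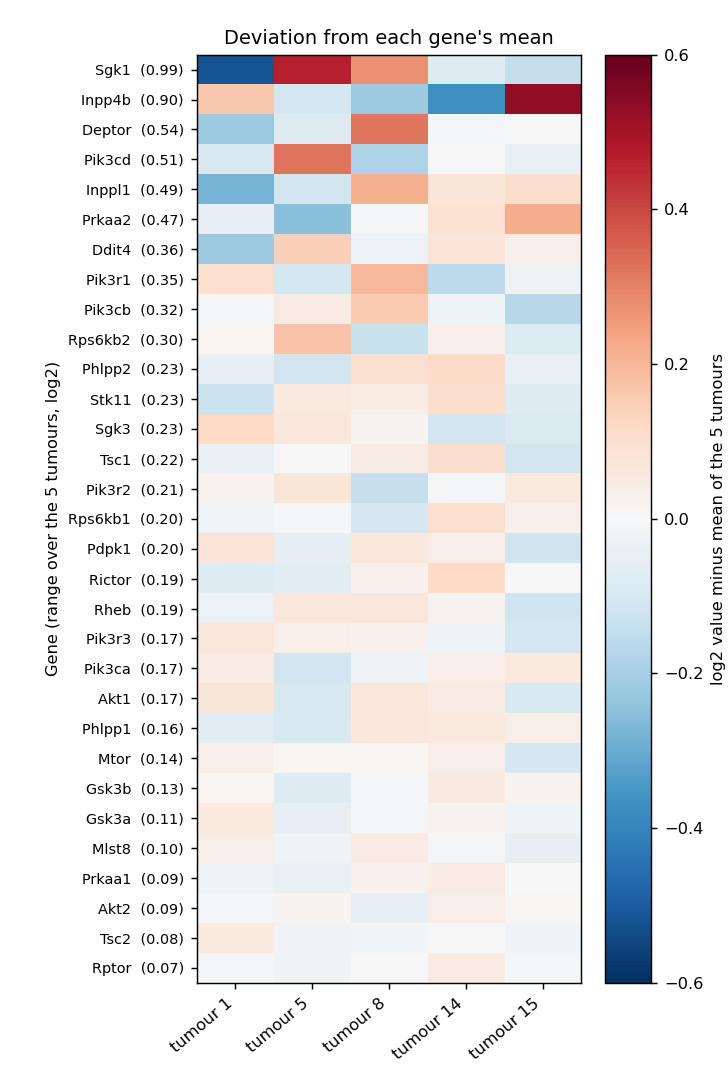
Deviation of each of the 31 pathway genes from its own mean in each tumour (colour, log2 units), ordered from the largest range at the top to the smallest. Deep colours are limited to the uppermost rows: Sgk1 is low in tumour 1 and high in tumour 5, and Inpp4b is high in tumour 15 and low in tumour 14.

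**Figure D5:**
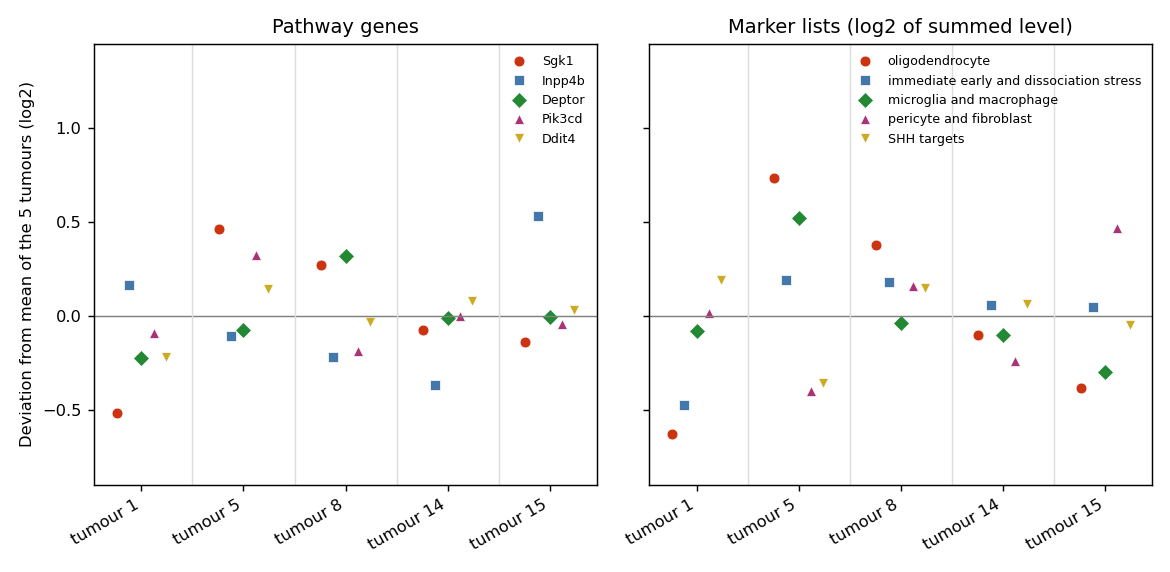
Deviation from the mean of the 5 tumours (log2) for 5 pathway genes on the left and for the summed levels of 5 marker lists on the right, with 1 point per gene or list in each tumour. Sgk1 and the oligodendrocyte list are both lowest in tumour 1 and highest in tumour 5. Pik3cd and the microglia list are both highest in tumour 5, but Pik3cd is lowest in tumour 8 and the list in tumour 15. Lists not drawn, such as choroid plexus and endothelial, also peak in tumour 5.

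Beyond the 31 genes, 76 other genes of the pathway were examined as fixed lists, of which 75 had a mean of at least 5. Of these 75, 4 varied over 1.5-fold (5.33%, against 14.7% of expressed genes) and 0 over 2-fold. The 4 were Inpp5d, Prr5, Foxo6 and Eif4ebp1. Prr5, a subunit of mTOR complex 2, was measured at 9.72, 8.90, 9.82, 9.35 and 9.36 in tumours 1, 5, 8, 14 and 15, low in tumour 5. Foxo6, a forkhead factor of neurons that AKT inhibits, was high in tumour 8 (11.05, against 10.13 to 10.66). Eif4ebp1, a repressor of translation that mTOR complex 1 inactivates, was lowest in tumour 5 (7.24) and highest in tumour 14 (7.91).

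By group, 14 genes for receptors, adaptors and other PI3K subunits had a median of 6.97 ± 0.04 per kb (SD, n = 5), with the adaptor Gab1 highest (9.77 per kb) and 0 of 14 over 1.5-fold. The 6 phosphoinositide phosphatases stood at 7.30 ± 0.09 per kb, with Synj1 highest (7.85 per kb). The 7 partners of the mTOR complexes stood at 7.60 ± 0.09, with Akt1s1, which encodes the mTOR complex 1 inhibitor PRAS40, highest (9.13 per kb). The 25 genes of amino acid sensing stood at 7.72 ± 0.02, and 0 of 25 varied over 1.5-fold, Castor1 coming nearest at 1.49-fold. The 14 output genes stood at 8.71 ± 0.07, the highest of these groups, led by Rps6 (11.59 per kb), which encodes the ribosomal protein that S6 kinases phosphorylate. The 10 genes of AMPK partners and AKT inhibitors stood at 7.08 ± 0.07, led by Cab39 (9.14 per kb), an LKB1 partner, with Trib3 lowest (3.07 per kb). Of the 76 genes, 32 had their highest value in tumour 5 (42.1%, against 24.1% of expressed genes) and 13 in tumour 14 (17.1%, against 15.8%), unlike the 31 genes above, of which 6 were highest in tumour 5 and 10 in tumour 14. This difference between the lists was not tested.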

How the data were processed

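RNA sequencing of 5 libraries in 1 group was deposited as a table of 7 columns, of which 2 match no sample described here and were used in no step. The authors deposited log2 values, read from the table's short name in the labels as the regularised log of DESeq2. Per the submitters' processing notes, the authors used STAR 2.4.1, featureCounts of Subread 1.4.6 and DESeq2 on mm10 and GRCm38; for the annotation, strand setting and gene filter nothing is given in these sources. Per the labels' protocols, tumour cells were papain-digested, RNA was extracted at once, and 1.3 ug went into strand-specific mRNA libraries. The regularised log scales for library size, not length, and shrinks differences at weakly expressed genes. The 2 unused columns may have entered that transformation. Counts were not used here, so depth is unknown and counting error is not quantified.

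Exon lengths and positions came from GENCODE M21 (GRCm38), in which 97.5% of symbols matched 1 gene, and promoters from RefSeq (GRCm38.p6). Differences within tumours were tested with an exact sign-flip permutation test; ranges, levels and counts have no test. The members and lists were chosen with earlier results of these data known. Every member is named; of each other list, the gene of highest mean and the 2 of largest range could be, and Zic1, Atoh1, Tsc22d3 and Trib3 fall under that rule. So do the 4 other pathway genes over 1.5-fold and Pik3cg. Akt1s1, Rps6 and Dusp1 were named after their values were seen. Alternatives were no length or the longest transcript, other filters on the mean, centred columns, list means, and leaving out each library. Some marker lists were described above only in part (granule progenitor and endothelial) or not at all. From the highest to the lowest tumour, their medians were 13.07 to 12.76 (granule progenitor), 9.98 to 9.39 (endothelial), 7.27 to 6.60 (Purkinje cell) and 11.87 to 11.28 (oligodendrocyte precursor). Further medians were 11.59 to 11.12 (astrocyte and Bergmann glia), 4.04 to 3.70 (T cell, 3 of 6 genes in the table) and 8.50 to 6.75 (red blood cell, 1 of 5). The last were 8.92 to 8.43 (ATF4 stress response) and 8.52 to 7.96 (hypoxia response). Scripts were tested on simulated data and used Python 3.11.15, numpy 2.4.6, pandas 2.3.3, scipy 1.17.1 and matplotlib 3.10.9.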

Additional observations from a re-analysis of the deposited data

Results flagged for a closer look

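Each of 54 values (gene levels, differences and group medians) was checked for 1 library lying apart, by the gap to its nearest neighbour as a share of the whole range, with a critical value of 0.71 for 5 libraries. Chance flags about 1 in 20, and 5.57% of expressed genes are flagged, so the 3 found are near that share. Tsc2 was higher in tumour 1 than in the other 4 (ratio 0.775), within a range of only 0.08. Mtor was lower in tumour 15 (ratio 0.796), within a range of 0.14. The difference of Pik3ca minus Pik3cd was smaller in tumour 5 (1.79) than elsewhere (2.27 to 2.38), with a ratio of 0.808.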

How the results depend on the processing

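No comparison between groups was possible because the samples form 1 group, and the pairs of genes were compared within each library. The sign of Gsk3a minus Gsk3b was reversed without exon length (-1.26), and the other 11 pairs kept their sign; all 12 kept it with the longest transcript and without each library in turn. With 4 libraries the smallest exact sign-flip permutation p is 0.125. The count of pathway genes over 1.5-fold was 1 with a mean of at least 8 (Inpp4b is below it), 1 among genes with a mean of 10 to 12, an alternative chosen after seeing the data, and 1 to 2 leaving out each library. The median of the 31 genes was 7.64 per kb and 10.48 as deposited when taken as a mean, against 7.72 and 10.74 as medians. With columns centred on their medians, the 15 counts, spreads and medians and 10 ranges recomputed stayed within 1.5 times their value (medians within 1 SD between tumours), although the count of genes highest in tumour 14 became 12, against 10, and in tumour 15 became 2, against 3. Differences at weakly expressed genes such as Inpp4b and Sgk3 may be understated by the regularised log.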
